A study of Mus musculus with 4 samples.

Results

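Mouse glial cells grown from the epiblast stem cell line EpiSC5 were compared with the same cells grown from a second line, 129O1, at 2 stages of the oligodendrocyte lineage. Peaks of open chromatin from 4 Omni-ATAC-seq libraries merged into 229743 regions. A region was taken as specific to a line when both libraries of that line had a peak in it and neither library of the other line did. Of all merged regions, 1548 (0.674%) were specific to 129O1 and 3252 (1.42%) to EpiSC5, which gave 4800 line-specific regions, against 55466 regions with a peak in all 4 libraries. In addition, the sequence covered by peaks in each protein-coding gene, with 2 kb on both sides, was compared between the lines, and 14540 of 21883 genes had enough covered sequence to be tested.

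The 4 libraries comprised 129O1 oligodendrocyte progenitor cells (OPCs), 129O1 oligodendrocytes (OLs), EpiSC5 OPCs and EpiSC5 OLs, with 1 library for each. Epiblast stem cells are pluripotent cells of the early embryo. Medium for the OPCs of either line contained PDGFA (20 ng/mL) and bFGF (20 ng/mL) but no SHH. After passage 4 the OPCs were purified by their surface markers, CD140a and NG2, and then expanded, and OLs were sorted on the O1 antigen. The labels name the mouse strains 129SvEv and 129S1/SvImJ and tie them to the lines only by the order of the names, so no line is assigned to a strain here. With 1 line of each kind, differences in strain, embryo, clone and culture history cannot be told apart. The labels do not say whether the OPC and OL libraries came from separate differentiations, so the spread between libraries may be technical.

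In ATAC-seq the Tn5 transposase inserts adapters into DNA that is not wrapped in nucleosomes, so that peaks mark active promoters and enhancers. Pluripotent lines can differ from one another in the alleles they carry, in chromosome content acquired in culture and in chromatin states that persist through differentiation, and such differences can appear at the same places in every cell type made from the line. Hox genes, the adhesion genes of the Slitrk and Cadm families and the splicing regulator gene Rbfox1, which recur in the results, act in body patterning, synapse formation and neuronal RNA processing, respectively.

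The lists held 129534, 127196, 125002 and 152595 peaks in 129O1 OPC, 129O1 OL, EpiSC5 OPC and EpiSC5 OL, and values for the 4 libraries are given in this order throughout. Peaks covered 38.63, 35.02, 44.11 and 41.2 Mb, so both EpiSC5 lists covered more sequence, and covered length was scaled to the list total. No read counts were at hand, so depth is unknown. Defining markers of both cell types were covered in both lines. Scaled covered sequence was 2.19, 2.84, 2.48 and 2.80 kb at Pdgfra, which encodes the CD140a receptor of OPCs, and 4.22, 4.49, 4.02 and 4.29 kb at Cspg4, which encodes NG2. At Enpp6, a gene of newly formed oligodendrocytes, it was 2.10, 5.17, 2.18 and 5.20 kb, higher in both OL libraries. Within each line, Pdgfra and Cspg4 were also somewhat higher in OL than in OPC. The summed covered sequence was 103.3, 119.7, 105 and 119.1 kb over the newly formed oligodendrocyte list. Over the OPC identity list it was 165.3, 204, 155.8 and 209.5 kb. Both lists were thus higher in OL, so Enpp6 does not stand for its list and these values do not tell the cell types apart. No peak was listed at the pluripotency gene Pou5f1 in any library, but this held for only 4 of the 30 genes in the pluripotency list. Their summed covered sequence was 21.4, 16.5, 26.3 and 15.1 kb, so Pou5f1 does not stand for the list.

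Few promoters lay mostly in regions of a single line. RefSeq start sites of GRCm38.p6, the assembly also named mm10, gave 32851 windows from 250 bp before to 50 bp after the start. At least 150 of the 300 bp lay in a 129O1-specific region for 33 windows (0.1%) of 31 genes, and in an EpiSC5-specific region for 59 windows (0.18%) of 55 genes. The following 5 are shown because their windows lie in some of the largest line-specific regions at a start site. All but the last are 129O1-specific, and CG dinucleotides are in capitals.
Slitrk5, chr14:111675777-111676076, plus strand: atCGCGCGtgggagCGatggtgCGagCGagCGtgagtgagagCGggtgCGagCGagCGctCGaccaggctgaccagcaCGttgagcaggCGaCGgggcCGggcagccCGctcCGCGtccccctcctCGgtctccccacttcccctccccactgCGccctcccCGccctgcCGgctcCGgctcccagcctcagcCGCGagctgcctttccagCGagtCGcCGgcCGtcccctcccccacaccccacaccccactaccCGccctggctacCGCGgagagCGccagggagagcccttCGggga
Hoxd1, chr2:74762730-74763029, plus strand: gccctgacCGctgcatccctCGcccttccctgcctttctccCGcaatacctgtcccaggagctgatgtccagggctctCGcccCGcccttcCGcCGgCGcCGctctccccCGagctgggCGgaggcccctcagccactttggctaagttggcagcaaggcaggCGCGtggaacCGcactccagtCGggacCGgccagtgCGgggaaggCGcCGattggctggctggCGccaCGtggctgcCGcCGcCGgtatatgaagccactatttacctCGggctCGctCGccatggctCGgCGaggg
Brinp3, chr1:146497437-146497736, plus strand: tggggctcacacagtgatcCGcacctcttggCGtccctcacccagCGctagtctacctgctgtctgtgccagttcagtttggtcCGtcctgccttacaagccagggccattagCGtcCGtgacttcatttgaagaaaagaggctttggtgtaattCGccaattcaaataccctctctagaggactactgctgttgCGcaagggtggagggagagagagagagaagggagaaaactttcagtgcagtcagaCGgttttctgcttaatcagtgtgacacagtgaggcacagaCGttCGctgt
Cadm2, chr16:67620859-67621158, minus strand: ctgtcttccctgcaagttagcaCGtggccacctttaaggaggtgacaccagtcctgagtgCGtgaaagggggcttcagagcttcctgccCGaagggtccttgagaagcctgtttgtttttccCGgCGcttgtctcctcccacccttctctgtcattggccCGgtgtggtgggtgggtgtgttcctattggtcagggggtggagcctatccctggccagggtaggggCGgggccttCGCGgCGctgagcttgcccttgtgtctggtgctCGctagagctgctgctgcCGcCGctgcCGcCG
Cldn34c1, chrX:123103273-123103572, plus strand: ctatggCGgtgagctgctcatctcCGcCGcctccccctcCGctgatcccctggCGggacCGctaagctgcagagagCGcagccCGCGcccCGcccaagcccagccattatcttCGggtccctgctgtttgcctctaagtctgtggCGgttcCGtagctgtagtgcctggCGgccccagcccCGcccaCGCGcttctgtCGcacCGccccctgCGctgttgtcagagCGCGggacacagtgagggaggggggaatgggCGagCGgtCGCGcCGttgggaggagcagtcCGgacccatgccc
The windows of Slitrk5, Hoxd1 and Cldn34c1 held 35, 29 and 28 CG dinucleotides, while those of Cadm2 and Brinp3 held 15 and 11. The median was 17 over the 129O1-specific windows, 12 over the EpiSC5-specific ones, 7 over all windows and 23 over those in regions shared by all libraries. Cadm2 was added to the sequences after its values had been seen, and 239 of its 300 bp lay in the region.

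Each window was searched on both strands for 5 short motifs, the TATA box TATAAA, the CAAT box CCAAT, the GC box GGGCGG, the AP-1 motif TGANTCA and the E-box CACGTG, of which none contains another. The GC box was present in 21 of the 33 129O1-specific windows (63.6%) and in 28 of the 59 EpiSC5-specific ones (47.5%). The share was 35.7% of all windows and 68.7% of windows in shared regions. The E-box was present in 9 of the 129O1-specific windows (27.3%), among them those of Hoxd1, Hoxd10 and Cadm2, and in 3 of the EpiSC5-specific ones (5.08%), against 7.15% of all windows and 10.4% of windows in shared regions. Some windows overlap or share a region, so they are not independent. Those of the lncRNA genes Gm31138 and 4930433N12Rik, for example, overlap in 1 129O1-specific region and both count for the E-box. These are matches of letters, and binding was not measured.

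At Slitrk5, which encodes a leucine-rich transmembrane protein of synapses, the 129O1-specific region spanned chr14:111675276-111676610 and held peaks of 1335 bp in OPC and 1191 bp in OL. A start of the lncRNA Gm30439, which is transcribed from the other strand, lay in the same region. The nearest EpiSC5 peaks began 354 and 299 bp away, and each EpiSC5 library had 1 short peak in the gene. Over the whole gene, scaled covered sequence was 1.79 and 1.84 kb in the 129O1 libraries and 0.125 and 0.105 kb in the EpiSC5 libraries. The lines did not overlap, and Slitrk5 passed the test as lower in EpiSC5, by 2.68 on the log2 scale (log2 difference -2.68, SE 0.195, n = 2 libraries per line; limma, adjusted p = 0.0236). The 2 libraries of a line are 1 OPC and 1 OL library and not replicates. With cell type in the fit, 1 residual degree of freedom is left for each gene. The SE and p, here and below, thus rest on how far the line difference disagrees between OPC and OL, moderated across genes. Its relative Slitrk1, which was not called, had 1.54, 0.925, 0.364 and 0 kb.

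Cadm2 encodes a synaptic adhesion molecule of the immunoglobulin superfamily. Its start lay in the most extensive 129O1-specific region, chr16:67619745-67621097, with peaks over 1353 bp in OPC and 1258 bp in OL and the nearest EpiSC5 peak 5548 bp away. The difference ran along the gene: 35 and 52 peaks were listed in 129O1 against 13 and 23 in EpiSC5, and 6 of its 67 regions were 129O1-specific while none was EpiSC5-specific. Over all merged regions, the shares were 0.674% and 1.42%. Scaled covered sequence was 8.66, 13.6, 2.87 and 5.49 kb. Both EpiSC5 values lay under both 129O1 values, but the gene missed the threshold (log2 difference -1.40, SE 0.122; limma, adjusted p = 0.0562).

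Brinp3, which encodes a neural protein of the BMP and retinoic acid inducible family, had a 129O1-specific region at a start within the gene, chr1:146497372-146498178, with 807 and 648 bp. The nearest EpiSC5 peak lay 226738 bp from it in OPC and 144327 bp in OL. Over the gene, scaled covered sequence was 2.17, 2.15, 0.641 and 0.954 kb, again without overlap of the lines (log2 difference -1.26; limma, adjusted p = 0.0854). A region of similar isolation, chr8:50915846-50916752, covered 895 and 889 bp in 129O1. It lay 681 bp from the start of the RefSeq gene 1700019L22Rik and 1393022 bp from the nearest protein-coding gene, Tenm3, and the nearest EpiSC5 peak was 211331 bp away. Further 129O1-specific regions among the 8 with the most covered sequence lay in Grip1, which encodes a scaffold of glutamate receptors (473 and 669 bp), at the X-linked Dcaf12l1 (537 and 585 bp), and on chromosome Y at Gm52481 (602 and 736 bp).

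The EpiSC5-specific regions with the most covered sequence were at other genes, and 3 of the first 8 were on chromosome X. The region at the start of Cldn34c1, a claudin-like gene, spanned chrX:123103180-123104156 and held peaks over 977 bp in OPC and 859 bp in OL. No peak was listed over the gene in either 129O1 library, and the nearest 129O1 peak lay 166936 bp away, while the gene had 1.17 and 1.11 kb in EpiSC5. A second region covered the start of Pou3f4, a POU-domain transcription factor gene of the developing brain (746 and 893 bp). Here 129O1 had peaks 1690 and 1719 bp away. Another lay at an end of the zinc finger gene Zfp182 (934 and 639 bp).

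The autosomal members of this group included the start of Tuba1c, a tubulin gene (704 and 611 bp), and Zc3hav1, which encodes an antiviral zinc finger protein (778 and 596 bp, 6 bp from its start). Regions in the gene bodies of Naca (853 and 547 bp) and Ncaph (1363 and 126 bp) and at an end of Rassf10 (142 and 1191 bp) complete the 8. The last 2 were covered unequally, Ncaph mostly in OPC and Rassf10 mostly in OL.

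Most line-specific regions were less prominent than these. Their median width was 148 bp in 129O1 and 200 bp in EpiSC5, against 216 bp over all regions and 471 bp over those shared by all libraries. By the authors' q value, the median peak in a line-specific region stood at the 29.4, 22.7, 24.5 and 26.0 percentile of its own list. Of the 129O1-specific regions, 581 (37.5%) had an EpiSC5 peak within 1 kb, and of the EpiSC5-specific regions 1115 (34.3%) had a 129O1 peak that near. Absence of a peak says that none passed the caller's threshold. With all lists shortened to equal length, the counts were 1872 for 129O1 and 2248 for EpiSC5, so the ratio between the lines depended on list length.

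The regions were placed relative to protein-coding genes. Sequence within 1 kb of either end of a protein-coding gene held 12% of 129O1-specific and 7.93% of EpiSC5-specific regions, against 9.58% of all regions and 23.4% of shared regions. Gene bodies held 45.0% and 46.2%, against 50.5% of all regions. The remaining 43.0% and 45.9% lay outside genes, against 39.9% of all regions.

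Across genes, the limma test called 4 of 14540 (0.0275%), of which 3 were higher in EpiSC5 (0.0206%) and 1, Slitrk5, was lower (0.00688%). An unadjusted p under 0.05 was reached by 1676 genes. No gene was called when any of the 4 libraries was left out, a fit that has no cell type term. Among all tested genes, 9199 (63.3%) had the same direction in OPC and OL, and the median log2 difference was -0.07 in OPC and -0.12 in OL. Outside the chromosome segments described below, 47.5% were negative in both and 14.8% positive in both. The median of the fitted difference was -0.09, and 0.006 with median-of-ratios scaling. An offset common to all genes raises the share with the same direction, so that share does not measure line differences of single genes. Genes at least 1.5-fold apart in both cell types were also counted, as a description: 81 were higher in EpiSC5 in both (0.557%), 51 were lower in both (0.351%), and 25 differed in opposite directions. At 2-fold, the counts were 20, 15 and 3. Fold differences are on the log2(bp + 200) scale, which understates genes with little covered sequence. Most genes named here were picked for a large difference, which makes lines without overlap likely among them. Such separation is therefore description and no further support.

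**Figure D1:**
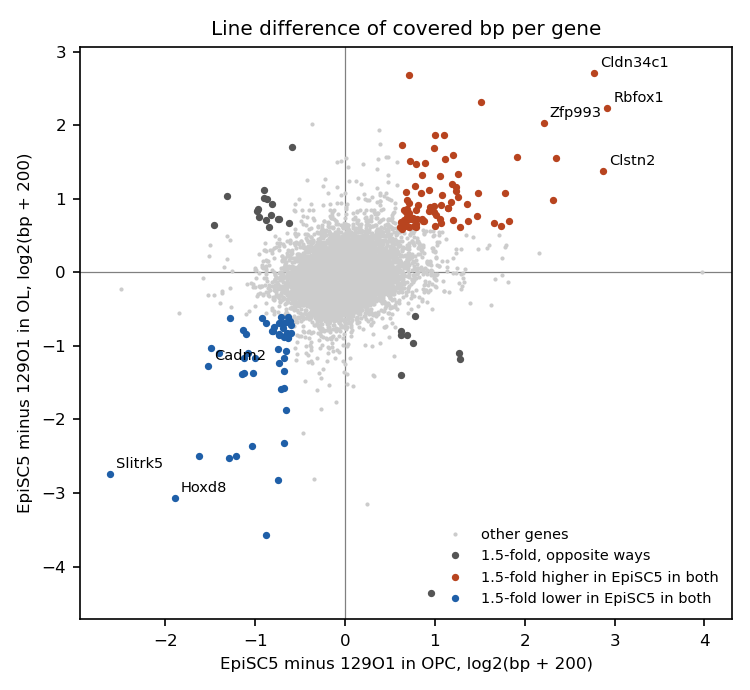
Line difference in covered sequence for each of the 14540 tested genes, EpiSC5 minus 129O1 on the log2(bp + 200) scale, with the OPC libraries on the x axis and the OL libraries on the y axis. Coloured points are the 81 genes at least 1.5-fold higher in EpiSC5 in both cell types, the 51 at least 1.5-fold lower and the 25 in opposite directions, and Slitrk5 and Hoxd8 lie far to the lower left while Rbfox1 and Cldn34c1 lie far to the upper right.

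Rbfox1, which encodes an RNA-binding regulator of alternative splicing in neurons, held more line-specific regions than any other gene. Of the 84 regions in the gene, 18 were EpiSC5-specific, none was 129O1-specific, and peaks lay in 5, 13, 42 and 69 of them. Over all merged regions, 1.42% were EpiSC5-specific and 0.674% 129O1-specific. Scaled covered sequence was 1.15 and 3.17 kb in 129O1 and 10.0 and 15.7 kb in EpiSC5. The lines were separated by a wide margin, and within each line the OL value was the higher one. The difference passed the test as higher in EpiSC5 (log2 difference 2.58, SE 0.178; limma, adjusted p = 0.0236), and was 7.56-fold in OPC and 4.72-fold in OL.

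Zfp993 on chromosome 4, a member of the large zinc finger family of transcriptional repressors, was the gene with the smallest adjusted p. Its values were 0.903 and 0.412 kb in 129O1 and 4.91 and 2.3 kb in EpiSC5, with no overlap (log2 difference 2.12, SE 0.113; limma, adjusted p = 0.0137). Its neighbour Zfp978 had 0.481, 0.534, 3.28 and 1.97 kb, and Rex2, which overlaps Zfp993 and belongs to the same cluster, had 0.252, 0, 1.09 and 0.797 kb. Genes of this cluster have near-identical copies, so the placing of reads among them, and with it each single value, is uncertain. Of 359 tested genes named Zfp with a number, 2 were at least 1.5-fold higher in both cell types, these being Zfp993 and Zfp978, and 1 was lower, the X-linked Zfp711, with 1.55, 1.63, 0.850 and 0.818 kb. These counts are near the shares over all tested genes (0.557% higher and 0.351% lower) and show nothing particular to the list.

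Wdfy4, a gene known for its role in antigen cross-presentation by dendritic cells, was the other call. It had 0.590, 0.650, 2.78 and 2.33 kb (log2 difference 1.74, SE 0.127; limma, adjusted p = 0.0236). Of the sequence covered there, 42.0% also lay in other genes' intervals. Of the list of microglia and blood genes, none of the 7 tested members was 1.5-fold apart in both cell types, and the summed covered sequence of all 17 was 12.7, 10.6, 10.9 and 11.1 kb. Over all tested genes, 0.557% were that much higher and 0.351% lower. A list of 7 would thus hold few or none, and the count is no result about such cells.

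Other genes more covered in EpiSC5 missed the threshold. Clstn2, which encodes the synaptic adhesion protein calsyntenin-2, had 0.646, 0.617, 6.0 and 1.92 kb, a difference of 7.33-fold in OPC and 2.59-fold in OL. Col5a2, a fibrillar collagen gene, had 0.674, 0.634, 1.79 and 1.72 kb (limma, adjusted p = 0.0698). Dmrta1, a transcription factor gene of the developing forebrain, had 0.456, 0.410, 1.37 and 1.34 kb (limma, adjusted p = 0.0811), though by number of peaks (2, 3, 2 and 3) the lines were alike.

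Rimbp2, which encodes an active-zone protein of synapses, differed most in OPC, with 1.94, 0.563, 7.17 and 1.41 kb, and the lines overlapped, since the 129O1 OPC value exceeded the EpiSC5 OL value. Cntnap2, another neural adhesion gene, had 3.01, 2.48, 4.95 and 5.54 kb, all EpiSC5 values above all 129O1 values. Cdh19, a cadherin gene of the Schwann cell lineage, had 0.316, 0.106, 0.834 and 0.915 kb. None of these 3 passed the test.

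**Figure D2:**
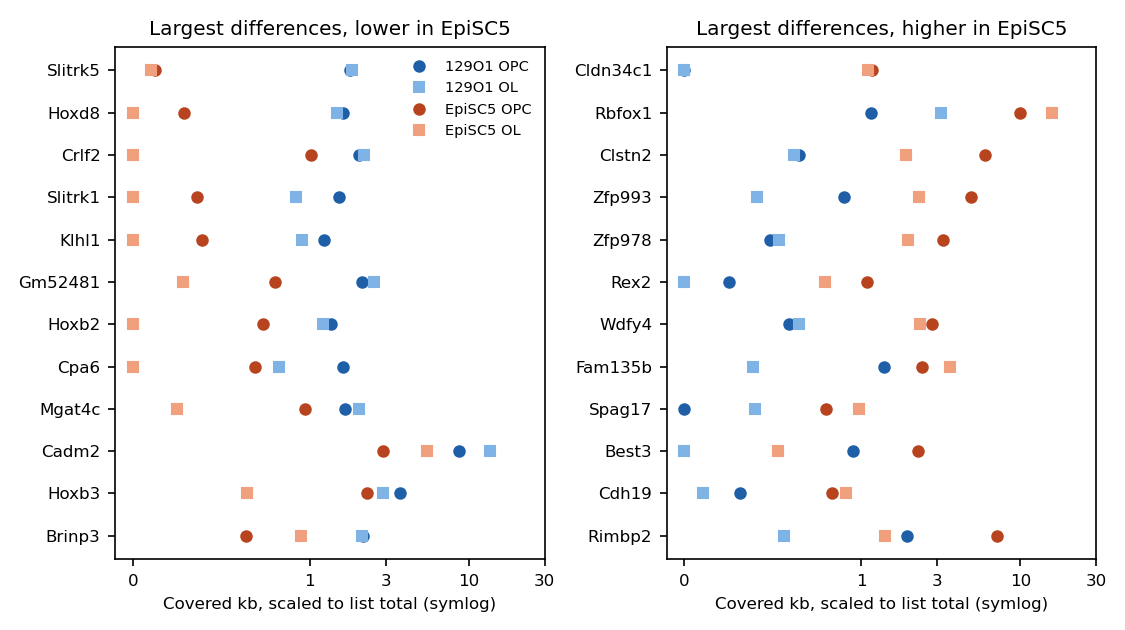
Covered sequence in kb, scaled to the list total, for the 12 genes with the largest mean differences in each direction among those at least 1.5-fold apart in both cell types. Each point is 1 library, blue for 129O1 and red for EpiSC5, circles for OPC and squares for OL; the x axis is linear up to 1 kb and logarithmic above, and at Cldn34c1 both 129O1 points lie at 0.

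The Hox genes, transcription factor genes that set position along the body axis and lie in 4 clusters, were the list with the most members lower in EpiSC5. Of 39 genes, 14 were tested, and 6 of them were at least 1.5-fold lower in EpiSC5 in both cell types (Hoxb2, Hoxb3, Hoxb7, Hoxb8, Hoxd3 and Hoxd8), none was higher and none passed the limma test. Over all tested genes, 0.351% were that much lower. The median log2 difference was -0.58 in OPC and -1.08 in OL, against -0.07 and -0.12 over all tested genes. Over all 39 genes the summed covered sequence was 30.1, 24.2, 22.4 and 12.7 kb, and 4, 8, 8 and 15 genes had no peak. Neighbouring Hox genes share covered sequence (all of that counted for Hoxb7 and 75.2% of that for Hoxb8 lies in other genes' intervals), so the members are not independent of each other.

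The clusters differed. The HoxD cluster on chromosome 2 had 6.26, 5.18, 2.02 and 0.971 kb, so EpiSC5 had 0.323 of the 129O1 value in OPC and 0.187 in OL, and 5 of its 26 regions were 129O1-specific. The HoxB cluster on chromosome 11 had 9.32, 6.36, 5.36 and 1.29 kb, ratios of 0.575 and 0.204, and 8 of its 40 regions were 129O1-specific. No region of either cluster was EpiSC5-specific. Over all merged regions, 0.674% were 129O1-specific and 1.42% EpiSC5-specific. Clusters of this size would thus hold few or none of either kind, and the lack of EpiSC5-specific regions is no result. The HoxA cluster on chromosome 6 had 7.73, 6.10, 8.24 and 6.17 kb, ratios of 1.07 and 1.01, and 1 of its 47 regions was 129O1-specific while 2 were EpiSC5-specific. The HoxC cluster, with the least covered sequence (1.48, 1.17, 2.68 and 0.810 kb), differed in opposite directions in OPC and OL and had no line-specific region.

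Within HoxD, the region at the start of Hoxd1 (chr2:74762716-74763476, sequence shown above) held 761 and 608 bp in 129O1, and the nearest EpiSC5 peak lay 12571 bp away in OPC and 12586 bp in OL. A second covered the start of Hoxd10 with 248 and 410 bp. Hoxd8 had 1.62, 1.48, 0.290 and 0 kb, and Hoxd3 had 2.31, 2.03, 1.03 and 0.667 kb (limma, adjusted p = 0.0716). Both EpiSC5 values lay under both 129O1 values at each of these genes. Within HoxB, Hoxb8 had 1.58, 1.29, 0.615 and 0.378 kb (limma, adjusted p = 0.0854), and Hoxb2 had 1.36, 1.21, 0.734 and 0 kb.

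**Figure D3:**
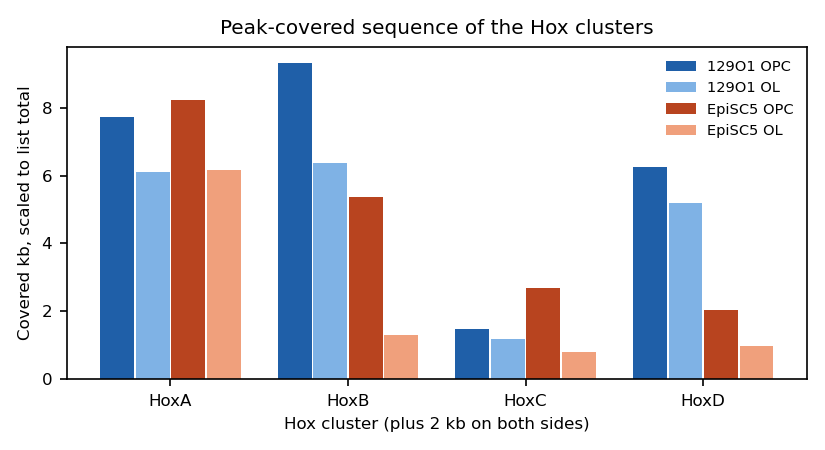
Covered sequence in kb, scaled to the list total, of the 4 Hox clusters with 2 kb on both sides, 1 bar for each library. In HoxB and HoxD both EpiSC5 bars are shorter than the 129O1 bars, in HoxA the bars of the same cell type are nearly level, and in HoxC the OPC and OL bars differ in opposite directions.

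Other patterning genes were counted in the same way. Of 23 tested genes of forebrain and midbrain patterning, 1 was at least 1.5-fold lower in both cell types, Pax6 (1.39, 1.30, 0.792 and 0.466 kb). Of 21 tested genes of hindbrain and dorsoventral spinal patterning, 2 were, Prdm12 (1.41, 1.15, 0.805 and 0.255 kb) and Shh, the ventral morphogen gene (1.26, 0.760, 0.710 and 0.178 kb). None was higher in these lists, and none passed the test. The shares over all tested genes were 0.351% lower and 0.557% higher, and counts of 1 and 2 genes are small.

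Genes of the lineage itself were also counted. With 0.557% of all tested genes higher and 0.351% lower by this rule, lists of this size would hold few or none, so a count of 0 is no result about them. None of the 30 OPC identity genes, 23 newly formed oligodendrocyte genes or 32 tested lineage transcription factor genes was 1.5-fold apart in the same direction in both cell types, and their median log2 differences were between -0.07 and 0.02 in OPC and OL. Summed covered sequence of the OPC identity list was 165.3, 204.0, 155.8 and 209.5 kb. Among 28 tested genes of mature oligodendrocytes and myelin, 2 were higher in EpiSC5: Mag, which encodes myelin-associated glycoprotein (0, 0.533, 0.278 and 1.30 kb), and Aspa, the aspartoacylase gene (0.30, 0.696, 0.756 and 1.40 kb). At both genes OL exceeded OPC within each line, and neither passed the test (limma, adjusted p = 0.395 and 0.207).

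Markers of other cell types were also compared, and the same shares over all tested genes (0.557% and 0.351%) apply to these counts. No tested member of the astrocyte (21), neuron (16), vascular and mesenchymal (13) or microglia and blood (7) lists was 1.5-fold apart in the same direction in both cell types. Of 17 tested neural crest and Schwann cell genes only Cdh19 was higher, and of 11 tested pluripotency genes only Tfcp2l1 (0.461, 0.356, 1.64 and 0.971 kb). Collagen genes were higher in 3 of 38 cases (Col5a2, Col14a1 and Col22a1) and lower in none. Col14a1 and Col22a1 lie on the part of chromosome 15 described next.

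Covered sequence also differed over long stretches of 4 chromosomes. The share of all covered sequence on chromosome 15 was 4.23%, 4.16%, 4.75% and 4.70%, which put EpiSC5 at 1.12 times 129O1 in OPC and 1.13 times in OL. On chromosome 17 the share was 4.66%, 4.83%, 4.15% and 4.15%, ratios of 0.892 and 0.859. These were the autosomes farthest from equal in both cell types, and the cell types of each line differed much less than the lines. These shares were not tested, and an exact permutation test of 2 libraries against 2 cannot give a p below 0.33.

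**Figure D4:**
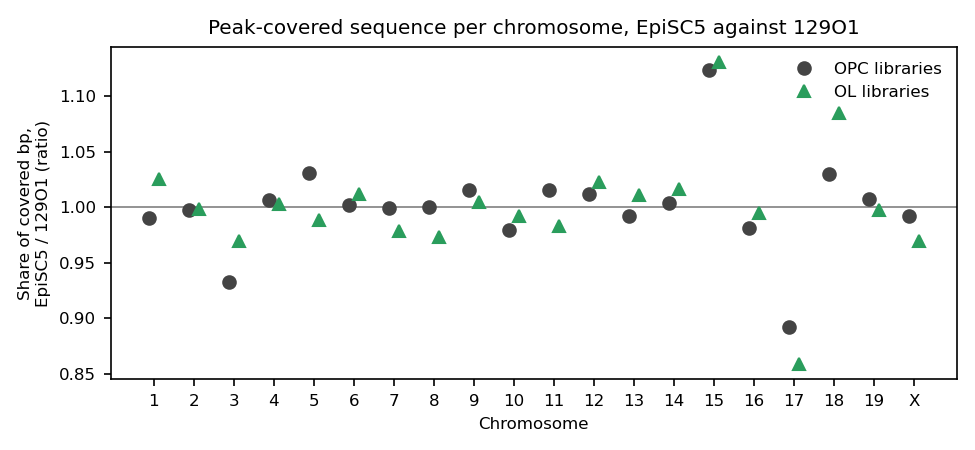
Share of covered sequence on each chromosome in EpiSC5 divided by that in 129O1, as a ratio, for the OPC libraries (circles) and the OL libraries (triangles). Chromosome 15 lies above 1 and chromosome 17 below 1 in both cell types; chromosome Y, at 0.867 in OPC and 2.42 in OL, is left off the axis.

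In bins of 5 Mb, 37 of 537 were higher in EpiSC5 by at least 0.1 on the log2 scale in both cell types (6.89%) and 34 were lower (6.33%). Lower bins ran together on chromosome 17, where all 16 bins from 15 Mb to the end were negative in both cell types, 15 of them past 0.1, and at the end of chromosome 3, where the last 4 bins, from 140 Mb, all lay past 0.1. Higher bins ran together on chromosome 15, with 10 of 13 bins from 40 Mb, and at the end of chromosome 18, with all 3 bins from 80 Mb. Outside these 4 segments, 24 bins were higher and 15 lower among 501. Chromosome 14 held 4 of the lower bins, which did not form 1 run, and 3 of the higher ones. Its bins from 90 Mb (-0.47 in OPC and -0.77 in OL) and 110 Mb (-0.68 and -0.96) were strongly lower. Slitrk5 lies in the bin from 110 Mb, and Slitrk1 in the bin from 105 Mb (-0.32 and -0.24). The bounds of the segments were set after the bins had been seen, to the nearest 5 Mb. Counts of genes, windows and line-specific regions inside the segments, given below, rest on the same peaks as the bins. The choice of bins makes it likely that these counts lean the same way. They describe the segments and are no further support for them.

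The end of chromosome 3 stood farthest from equal on the lower side. Its scaled covered sequence was 246, 249, 148 and 170 kb, ratios of 0.602 in OPC and 0.682 in OL. Fewer regions there held a peak in EpiSC5 (870, 826, 504 and 681), while the mean covered length of such a region was 274, 266, 326 and 259 bp. In the preceding 5 Mb bin the line differences were -0.18 in OPC and -0.04 in OL, and in the first bin of the segment they were -0.66 and -0.50. Of its 67 tested genes, 64 (95.5%) were negative in both cell types and none positive in both, against 47.5% negative outside the segments. The bins were chosen as lower in both cell types, which makes such an excess likely, so it adds no support. Line-specific regions were nearly all of 129O1, with 50 of 1436 (3.48%) against 5 of EpiSC5 (0.348%). Over all merged regions, 0.674% were 129O1-specific and 1.42% EpiSC5-specific. The choice of bins makes this lean likely too.

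Genes in this end of chromosome 3 made up 9 of the 51 at least 1.5-fold lower in EpiSC5. They included Negr1, which encodes a neuronal adhesion protein (8.12, 14.5, 4.97 and 8.48 kb), Lrrc7, which encodes the postsynaptic protein densin (4.96, 3.57, 1.76 and 1.56 kb), Adgrl2, an adhesion receptor gene (4.65, 4.12, 2.89 and 2.19 kb), and Tnni3k, a kinase gene (4.37, 1.76, 1.97 and 0.717 kb). The others were Gipc2, Ptger3, Slc44a5, Wdr63 and Znhit6. In 100 kb windows, 25 of 118 in the segment (21.2%) were at least 1.5-fold lower in both cell types and none higher. Over all windows, 106 of 16446 were lower (0.645%) and 344 higher (2.09%). The windows hold the same peaks as the bins by which the segment was chosen, so their excess adds no support.

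On chromosome 15 from 40 Mb, scaled covered sequence was 1288, 1247, 1495 and 1446 kb, ratios of 1.16 in both cell types. Peaks lay in 3794, 3471, 4456 and 4967 of 7591 regions, with a mean covered length of 330, 317, 372 and 302 bp. Over all merged regions, 1.42% were EpiSC5-specific and 0.674% 129O1-specific. In this segment, line-specific regions numbered 201 for EpiSC5 (2.65%) and 11 for 129O1 (0.145%). The segment was chosen for its higher bins, so neither this lean nor that of its genes adds support. The segment held 9 of the 81 genes at least 1.5-fold higher in EpiSC5. Among them were Col22a1, a collagen gene of tissue junctions (5.01, 2.08, 9.44 and 6.16 kb), Fam135b (1.39, 0.390, 2.42 and 3.60 kb) and Tg, the thyroglobulin gene (2.57, 2.34, 4.18 and 3.86 kb). The median log2 difference of its 470 tested genes was 0.05 in OPC and 0.01 in OL, against -0.07 and -0.12 for genes outside the segments, and 35.7% were positive in both cell types against 14.8%. Without the genes of the 4 segments, 72 genes were at least 1.5-fold higher and 42 lower.

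On chromosome 17 from 15 Mb the difference was smaller and widespread. Covered sequence was 1562, 1579, 1362 and 1309 kb, ratios of 0.872 and 0.829, over 4369, 4301, 3937 and 4367 regions with a mean covered length of 347, 324, 384 and 311 bp. Of 655 tested genes, 503 (76.8%) were negative in both cell types, and none reached 1.5-fold in the same direction in both. Line-specific regions numbered 93 for 129O1 (1.25%) and 79 for EpiSC5 (1.06%), against 0.674% and 1.42% of all merged regions. At the end of chromosome 18, from 80 Mb, covered sequence was 87.3, 102, 124 and 147 kb, ratios of 1.42 and 1.44, over 294, 321, 407 and 564 regions with a mean covered length of 288, 280, 337 and 270 bp. Of its 31 tested genes, 24 were positive in both cell types. Its line-specific regions numbered 3 for 129O1 (0.373%) and 28 for EpiSC5 (3.48%). On chromosomes 17 and 18 too, the choice of bins makes such counts of genes and regions likely. Over the rest of the autosomes the ratios were 1.002 and 1.003. This part holds most of the covered sequence, so scaling to the list total keeps it near equal.

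**Figure D5:**
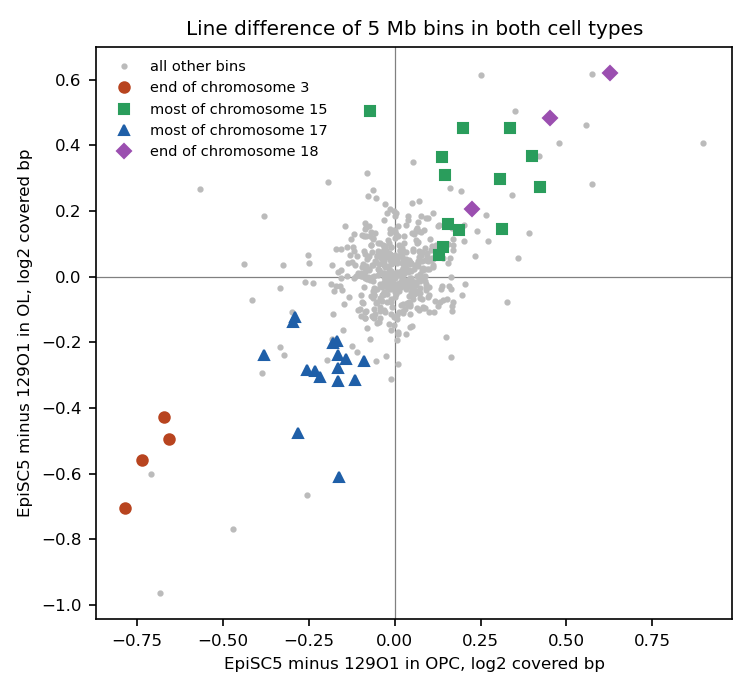
Line difference of each 5 Mb bin, EpiSC5 minus 129O1 in log2 covered bp, with the OPC libraries on the x axis and the OL libraries on the y axis. The 4 bins at the end of chromosome 3 and the 16 of chromosome 17 lie below 0 on both axes, the 3 at the end of chromosome 18 lie above 0 on both, and 12 of the 13 of chromosome 15 do.

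Without scaling, the EpiSC5 to 129O1 ratios in OPC and OL were 0.688 and 0.803 at the end of chromosome 3, 0.996 and 0.976 on chromosome 17, 1.33 and 1.36 on chromosome 15, and 1.62 and 1.69 at the end of chromosome 18, against 1.14 and 1.18 in the rest of the autosomes. In regions with a peak in all 4 libraries, the median log2 difference in covered length was -0.25 in OPC and -0.44 in OL at the end of chromosome 3, against -0.04 and -0.23 in the rest of the autosomes. It was -0.15 and -0.33 on chromosome 17, 0.06 and -0.14 on chromosome 15, and 0.13 and -0.06 at the end of chromosome 18. The chromosome 15 and 18 segments thus lay above the rest of the autosomes, but were negative in OL on this measure. DNA copy number was not measured.

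In windows of 100 kb, limma called 8 of 16446 (0.0486%), and 0 or 1 when a library was left out. The 5 that were lower in EpiSC5 held the HoxD genes (5.10, 4.43, 1.82 and 0.667 kb; limma, adjusted p = 0.0142), Slitrk5, the start of Cadm2 (2.88, 2.60, 0.770 and 0.785 kb), part of the protocadherin gene Pcdh9 (3.56, 3.23, 1.70 and 1.13 kb) and, on chromosome Y, Gm52481 (11.2, 9.79, 5.67 and 2.68 kb). In each of these windows both EpiSC5 libraries lay under both 129O1 libraries, which is likely for windows already called and adds no support. The 3 that were higher held Col22a1, Speer4d (0.643, 0.0964, 2.76 and 1.49 kb) and Ptgdr, a prostaglandin receptor gene (0.267, 0.119, 1.90 and 1.54 kb). Speer4d belongs to a family of near-identical copies, so its value is uncertain.

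Both lines had peaks at genes of chromosome Y. Scaled covered sequence was 1.38, 0.945, 1.24 and 0.848 kb at Uty, 0.930, 0.951, 0.836 and 0.621 kb at Ddx3y, and 0.717, 0.654, 0.948 and 0.698 kb at Eif2s3y. None of the 3 was 1.5-fold apart. At Kdm5d, which had too little covered sequence to be tested, 3 peaks were listed in each EpiSC5 library and none in 129O1.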

How the data were processed

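The authors deposited 1 peak list per library, called without pooling. Per the labels' protocols, nuclei of 50000 cells were transposed and single-end reads of 50 bp were sequenced. The build was mm10, and the tools were Bowtie2 2.3.2, Trim Galore 0.3.1, MACS2 and Picard, per the submitters' processing notes. For duplicate handling, read shift and calling threshold, the setting is not given in the sources used here. Each deposited peak carries a fold enrichment, which is a linear ratio, a score, and its p and q as −log10 values. These are the authors' own and served only to rank peaks within a list.

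Overlapping or touching peaks of the 4 lists were merged. Covered base pairs per gene (RefSeq GRCm38.p6, 2 kb on both sides) and per 100 kb window were divided by the list total relative to the mean over lists, and features with a mean of at least 500 bp were kept. The log2 of the value plus 200 bp was fitted in R 4.3.3 by limma 3.58.1 (moderated statistics with trend, two-sided, cell type and line as terms, Benjamini-Hochberg, threshold 0.05, same sign in OPC and OL required). The fit was tested on simulated data. Alternatives changed the scaling, the added 200 bp, the minimum, the gene interval, the peak set and the libraries. For 5 Mb bins 2000 bp was added.

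The named genes were to be Pdgfra, Cspg4, the Y-linked list and the 12 largest calls in each direction, up to 3 called members of each list, the 5 genes per line richest in line-specific regions, the 8 line-specific regions per line with the most covered sequence (and the 5 at gene ends), the 5 windows per direction and 4 promoters per line. With 4 calls, the rule of 1.5-fold in both cell types and the genes named by it were added after the values had been seen, as were the 4 chromosome segments. Members and lists were chosen with earlier results of these data known. Not all genes that passed the 1.5-fold rule are reported here.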

Additional observations from a re-analysis of the deposited data

Results flagged for a closer look

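The line difference had opposite signs in OPC and OL for the 6 results listed here, which are not the only ones. Of all tested genes, only 63.3% had the same direction in both cell types. Opposite directions at 1.5-fold were seen at 25 genes, and the HoxC cluster also differed in opposite directions. With 1 library of each line in each cell type, the difference between the cell types was not tested. The share of covered sequence on chromosome Y in EpiSC5 was 0.8665 of that in 129O1 in OPC and 2.418 times it in OL, where the EpiSC5 OL list held 274 peaks on that chromosome against 112, 113 and 98 in the others. The number of peaks, as log2 of EpiSC5 over 129O1, was -0.0514 in OPC and 0.263 in OL. Among genes, the log2 difference in covered sequence was 0.198 in OPC and -0.12 in OL at Snx29, 0.168 and -0.0175 at Pdgfra, -0.069 and 0.299 at Celf2, and -0.0649 and 0.551 at Alk. Snx29, Celf2 and Alk are among the 5 genes with the most EpiSC5-specific regions (5, 4 and 4). These were 5.21%, 3.88% and 5.63% of the regions in each gene, against 1.42% of all merged regions.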

How the results depend on the processing

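The libraries pair by cell type, which is a term of the fit, and the labels give no replicate numbers. Of 14540 genes, 4 were called. The count was 0 with the line alone (no pairing by cell type), with median-of-ratios scaling, with the better 50% of each list by q, with lists of equal length and without any 1 library. It was 2 without the filter or with the gene interval alone, 17 with 1000 bp added, 26 with peaks of 200 bp around the summit, 48 with 20 kb on both sides, 97 at a mean of at least 2000 bp and 125 by number of peaks. The 8 windows became 0 with the line alone, median-of-ratios scaling, the better 50% or equal length, 0 to 1 without 1 library, 3 with 50 bp added, 49 with summits, 80 with 1000 bp added, 97 at 2000 bp and 183 without the filter. Genes at least 1.5-fold higher in both cell types (81) and lower (51) numbered 195 and 21 without scaling, which moved the median of all genes from -0.09 to 0.09; 14 and 15 with 1000 bp added; 275 and 104 without the filter; 15 and 14 at 2000 bp; 401 and 347 in OPC alone; and 296 and 325 in OL alone. The higher count was 123 with 20 kb, and the lower count 172 by number of peaks, 123 with summits and 79 with the better 50%. The 129O1-specific regions numbered 2490 with summits, 967 with no EpiSC5 peak within 1000 bp, and 5254 to 28108 without 1 library. The EpiSC5-specific regions numbered 1379 with the better 50%, 2137 with no 129O1 peak within 1000 bp, and 7828 to 34387 without 1 library, where 1 peak sufficed. Log2 differences per chromosome without scaling were 0.141 on chromosome 3 (-0.0721 when scaled), 0.0207 on 17 (-0.192), 0.386 on 15 (0.173; 0.187 with the better 50%) and 0.293 on 18 (0.0798). Of the named genes, 3 changed sign: Vmn2r13 (-0.21 to 1.88 when 1 library was left out, negative without 129O1 OL or EpiSC5 OPC), CN725425 (-0.27 to 1.60, negative without 129O1 OPC or EpiSC5 OL) and Dmrta1 (-0.0800 by number of peaks). The cause was not tested. Rbfox1 stayed higher in EpiSC5 (1.92 to 3.24) and Slitrk5 lower (-3.50 to -1.07) in the settings run. Depth is unknown, so a missing peak is not a closed site.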

Other observations

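Some genes at least 1.5-fold apart in both cell types, in the same direction, were not described above; they were chosen after their values had been seen, and none passed the limma test. Higher in EpiSC5 were Fli1, an ETS transcription factor gene (1.98, 1.32, 3.81 and 2.27 kb in 129O1 OPC, 129O1 OL, EpiSC5 OPC and EpiSC5 OL), Itga4, an integrin subunit gene (0.726, 0.472, 1.58 and 1.26 kb), and the hormone receptor gene Esr2 (0.326, 0.179, 1.15 and 0.525 kb). Hydin, which encodes a protein of motile cilia, had 1.81, 2.28, 3.45 and 3.84 kb, and the dynein gene Dnah7b had 0.885, 0.961, 2.09 and 2.20 kb. At each of these 5 genes both EpiSC5 values lay above both 129O1 values, which their choice by this rule makes likely and which adds no support. Lower in EpiSC5 were Galnt13, a glycosyltransferase gene (2.75, 2.50, 1.48 and 1.35 kb), Ppfia2, which encodes the synaptic scaffold liprin-alpha-2 (3.70, 3.75, 2.31 and 2.28 kb), and Egr4, an immediate early gene (1.10, 0.787, 0.396 and 0.242 kb). The lines did not overlap at these either, which the choice again makes likely.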
